A study of Mus musculus with 8 samples.

Results

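Transcripts of glycolysis, glucose uptake and lactate handling were followed in CD8+ T cells from mouse spleen. The gene set holds 32 genes, chosen by symbol from the 55291 genes of the deposited table. They are the hexokinases, the other enzymes from glucose phosphate isomerase to pyruvate kinase, lactate dehydrogenase, the carriers of glucose and lactate, the bifunctional kinases that set fructose 2,6-bisphosphate, pyruvate dehydrogenase with its kinases, and glucose-6-phosphate dehydrogenase. All 32 were in the table and all 32 passed the filter on low counts. The 8 polyadenylated RNA libraries came from splenic CD8+ T cells of naïve mice, enriched on magnetic particles with no fluorescence sort. The sample titles call the cells naïve CD8 T cells. In 4 libraries the genotype label is ATF4 Tg/Tg and the title says ATF4 overexpression. The other 4 are labelled WT. The design text of the series names the mice differently, as ATF4Tg/Tg and E8IcreATF4Tg/Tg. Those names read as the transgene without and with E8Icre, a Cre driver active in mature CD8+ T cells, so the WT label may stand for mice that carry the transgene without Cre. Age, sex, any pooling of mice and the origin of each sample from a separate mouse are not in the labels, so p-values measure only the spread between these samples, which may be technical.

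Glycolysis splits glucose into pyruvate in the cytosol and yields ATP and NADH. Hexokinase, phosphofructokinase and pyruvate kinase catalyse its irreversible steps. Pyruvate is either reduced to lactate by lactate dehydrogenase and exported, or oxidised in mitochondria by pyruvate dehydrogenase, which the pyruvate dehydrogenase kinases switch off. Naïve T cells rely mostly on oxidative metabolism and raise glucose uptake and glycolysis when activated. ATF4 is a transcription factor of the integrated stress response and is best known for inducing amino acid synthesis and transport.

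The libraries held 103741876 to 119995468 estimated counts with ATF4 overexpression and 93478686 to 125974143 in WT. The column names fall into 2 forms, which set replicates 1 and 2 (library set 1) apart from replicates 3 and 4 (library set 2), with both groups in each set. What the sets stand for is not in the labels. In 4 libraries (ATF4 overexpression replicates 1 and 2, WT replicates 1 and 4) few genes had 2 to 5 counts, 528 to 752 against 1248 to 1568 in the other libraries. Levels are given as CPM (estimated counts scaled to a common library size) on scaled library sizes, and per kilobase of transcript where genes are set beside each other. A gene was called higher or lower at an adjusted p below 0.05 in edgeR's quasi-likelihood test over all 16630 genes tested. Atf4 itself measured 445, 427, 228 and 212 CPM with ATF4 overexpression and 285, 308, 165 and 165 CPM in WT. Within each library set the libraries with ATF4 overexpression were the higher ones, but the groups overlapped across sets, and the log2 fold change of 0.51 ± 0.31 (SE) was not called (adjusted p = 0.37). It was called with the replicate block (log2 fold change 0.48, adjusted p = 2.2e-04) and with the library set as block (0.48, adjusted p = 6.7e-05). Within the sets it was 0.59 in set 1 (adjusted p = 0.0038) and 0.41 in set 2 (adjusted p = 0.0046). Without the 4 libraries poor in low counts, which leaves ATF4 overexpression only in set 2, it was -0.11 (adjusted p = 0.86).

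The CD8 T cell markers were abundant in every library, with Cd8a at 995 to 1155 CPM with ATF4 overexpression and 1282 to 1515 CPM in WT. Of the 12 CD8 T cell markers, 6 were lower with ATF4 overexpression, among them Cd8a and Cd8b1, and their summed level was 6268 to 6686 CPM against 7767 to 8198 CPM in WT. Markers of other cells were higher with ATF4 overexpression in 7 of 10 for B cells, 7 of 14 for myeloid cells (13 tested), 9 of 12 for erythroid cells, 7 of 9 for platelets and megakaryocytes, 4 of 9 for NK cells, 3 of 5 for CD4 T cells and 1 of 7 for dendritic cells. With limma-voom, the numbers called in these lists were 5, 7, 4, 5, 4, 2 and 1, in the same order. The myeloid sum was 136 to 315 CPM with ATF4 overexpression and 20.4 to 83.9 CPM in WT, and the erythroid sum was 84.4 to 288 CPM and 12.1 to 16.5 CPM. Summed levels were 122 to 329 and 37.2 to 75.9 CPM for B cells, 241 to 423 and 112 to 211 CPM for NK cells, 69.6 to 85.6 and 26.9 to 36.7 CPM for platelets, 35.1 to 71.5 and 15.5 to 29.6 CPM for CD4 T cells, and 17.0 to 34.3 and 4.58 to 12.9 CPM for dendritic cells, each with ATF4 overexpression before WT. Of all these markers, the platelet gene Gp9 was listed at 0 in every WT library. Proliferation genes summed to 602 to 1323 CPM with ATF4 overexpression and 365 to 446 CPM in WT. Of these 21 genes 16 were higher, and limma-voom called 9. The proliferation genes with the smallest p were Mki67, Birc5, Kif11 and Aurkb, with log2 fold changes of 2.93, 2.33, 2.60 and 2.80. In a bulk library fewer cells of a type and less RNA per cell cannot be told apart, and the part of these shifts in the results on glycolytic genes was not tested. The NK cell list holds Klrk1 and Eomes and the CD4 T cell list holds Ctla4. Whether CD8 T cells were a source of these transcripts was not tested.

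**Figure D1:**
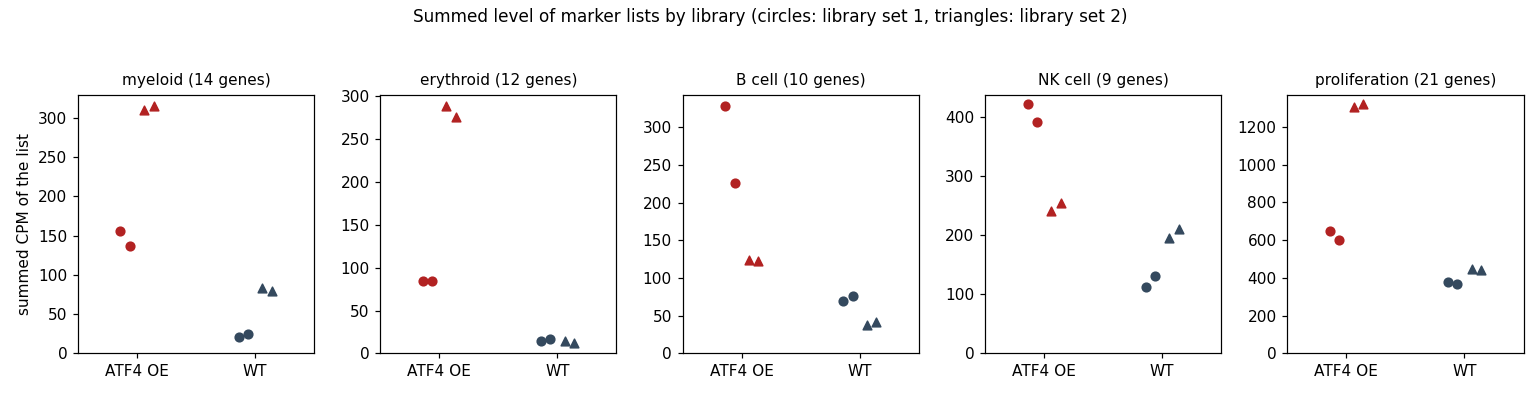
Summed CPM of 4 marker lists and of the proliferation list in each library, with ATF4 overexpression left of WT; circles are library set 1 and triangles library set 2. The sums with ATF4 overexpression lie above those in WT in all 5 lists, and the erythroid, myeloid and proliferation sums with ATF4 overexpression are highest in set 2.

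Of the 32 genes, 4 were higher with ATF4 overexpression (Hk2, Hk3, Pfkp and Slc16a3), 1 was lower (Pdk1) and 27 were not called. Across all genes tested, 9.16% were called higher and 4.89% lower, so the 4 and 1 of 32 are near the background of the whole table. The median log2 fold change of the 32 genes was 0.13, beside -0.02 over all genes. In 23 of the 32 the log2 fold change was within 0.3 of 0, and the share of all genes in that range is not given here. The groups did not overlap upward for 5 genes (Hk2, Hk3, Pfkp, Aldoc and Slc16a3), against 13.3% of all genes, and downward for 3 (Aldoa, Eno1 and Pdk1), against 8.66%. With the replicate number as a block in the model, 9 were higher, where 13.7% of all genes were, and 4 were lower, where 13.5% of all genes were. The added calls are Hk1, Pfkl, Tpi1, Ldha and Slc16a1 among the higher and Aldoa, Eno1 and Eno3 among the lower. With the library set as block, 6 were higher (14% of all genes) and 4 lower (11.6% of all genes), and Hk1, Pfkl and Slc16a1 were not called. Among the marker lists, the replicate block gave 9 higher genes for B cells, 10 for myeloid, 8 for erythroid and 7 for platelets. It gave 1 for NK cells, 2 for CD4 T cells and 2 for dendritic cells. With the set block these counts were 9, 11, 9, 8, 3, 2 and 2, in the same order. Proliferation genes called higher were 17 with the replicate block and 20 with the set block. With either block, 9 CD8 T cell markers were lower.

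**Figure D2:**
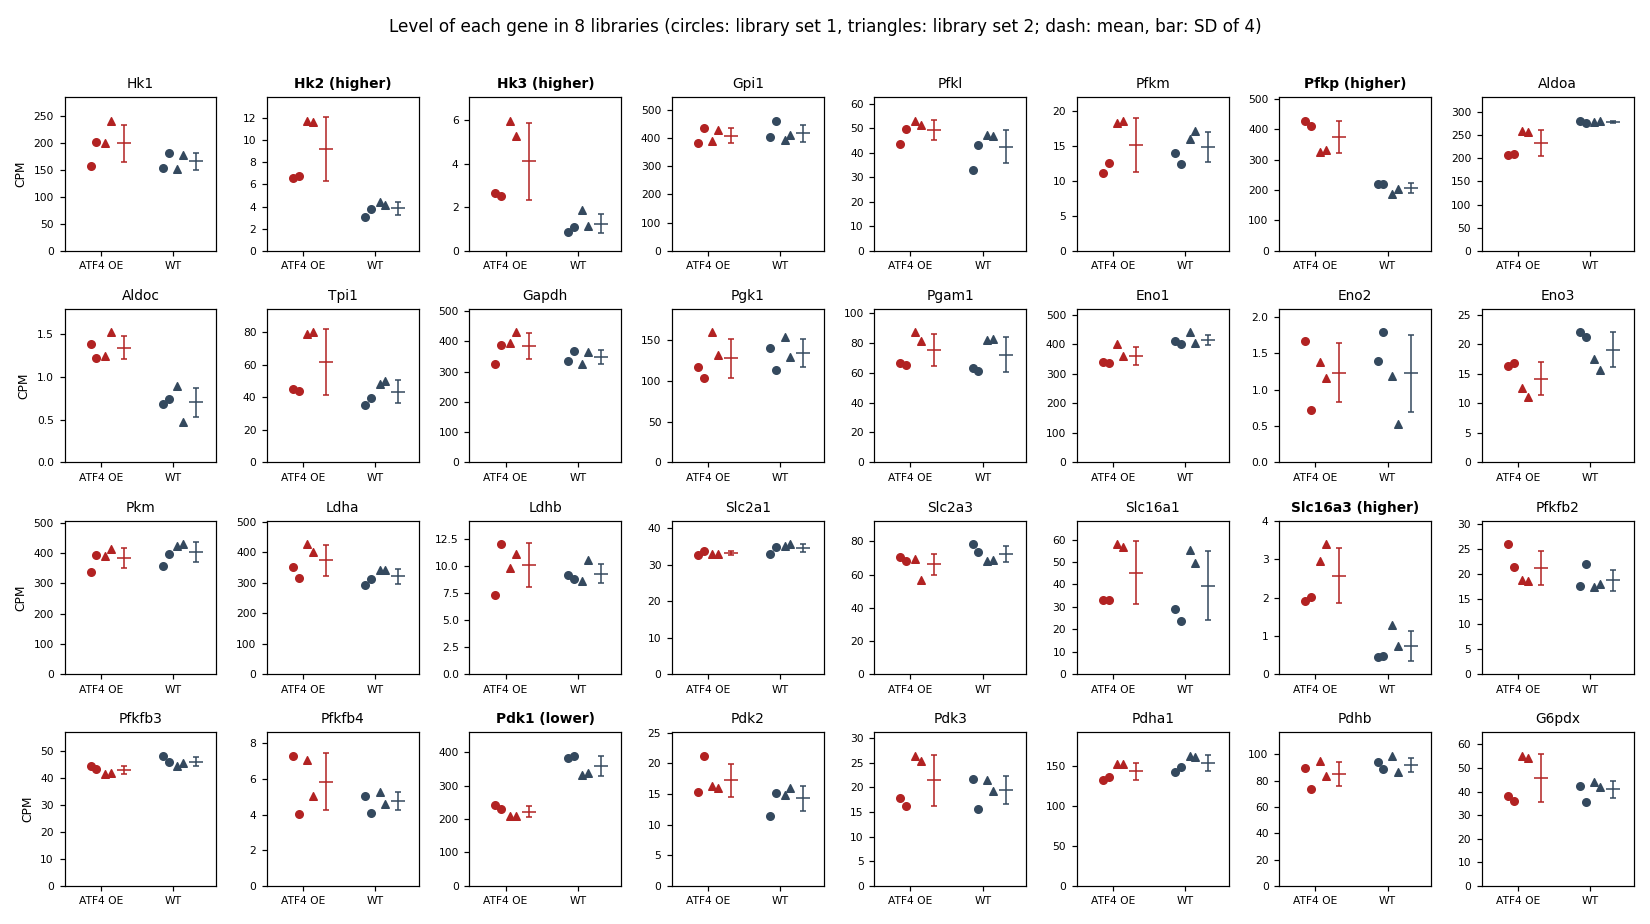
CPM of the 32 genes in the 8 libraries, each panel with its own linear axis from 0 and with ATF4 overexpression left of WT; circles are library set 1, triangles library set 2, and the dash and bar are the mean and SD of 4 libraries. Bold titles mark the 5 called genes, and most other panels show overlapping groups, with replicates of 1 library set lying together for genes such as Slc16a1 and Pgam1.

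The promoters of the genes with the steadiest differences are shown because the data bear on transcripts that start there. They run from 250 bases before to 50 bases after the start of a RefSeq transcript, on build GRCm38.p6, and are written in lower case. Capitals mark ACGTG, read on either strand (CACGT is its reverse complement). This is a form of the core of the site bound by hypoxia-inducible factors. The core may also read GCGTG, which is not marked or counted here.
Hk2 promoter, chr6:82774405-82774704, minus strand: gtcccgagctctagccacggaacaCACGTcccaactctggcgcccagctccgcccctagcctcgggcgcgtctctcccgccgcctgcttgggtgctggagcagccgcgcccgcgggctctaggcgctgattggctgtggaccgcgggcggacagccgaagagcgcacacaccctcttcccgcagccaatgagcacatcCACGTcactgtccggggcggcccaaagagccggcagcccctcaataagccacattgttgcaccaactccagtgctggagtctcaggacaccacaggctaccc
Pfkp promoter, chr13:6648722-6649021, minus strand: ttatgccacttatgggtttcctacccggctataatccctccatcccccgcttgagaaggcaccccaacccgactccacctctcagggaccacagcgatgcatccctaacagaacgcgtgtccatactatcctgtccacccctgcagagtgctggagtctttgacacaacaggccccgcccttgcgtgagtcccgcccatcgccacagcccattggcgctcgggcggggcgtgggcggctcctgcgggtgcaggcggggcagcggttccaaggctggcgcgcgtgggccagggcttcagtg
Pdk1 promoter, chr2:71872974-71873273, plus strand: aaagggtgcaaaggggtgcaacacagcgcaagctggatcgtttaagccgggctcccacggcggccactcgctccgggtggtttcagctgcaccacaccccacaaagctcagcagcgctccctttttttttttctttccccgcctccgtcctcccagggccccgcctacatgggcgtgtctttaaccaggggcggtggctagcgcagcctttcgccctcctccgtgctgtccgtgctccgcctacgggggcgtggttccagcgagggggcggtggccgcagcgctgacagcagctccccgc
The Hk2 window held ACGTG in 2 places. The windows of Pfkp and Pdk1 printed here held no ACGTG, but both held GCGTG. RefSeq windows were matched for 31 of the 32 genes, all but Slc2a3, and gave 47 promoter windows. Of these 47, 24 (51.1%) held ACGTG on either strand, in 20 genes, beside 19.6% of all 32851 promoters of the same length. Some windows of a gene overlap, as for Aldoa, where the same ACGTG is counted again, so the 47 are not separate promoters. No share by gene is given for the whole table of promoters. The longer E-box CACGTG, which contains ACGTG and can bind MYC and its relatives, was in 6 of 47 (12.8%), beside 7.15% of all promoters. The letters TGATGNAA, searched as the composite element to which ATF4 binds with a C/EBP partner, were in 0 of 47 and in 3.97% of all promoters. The median share of G and C was 61.0% in the 47 windows and 52.7% in all promoters, and base composition also sets how often such letters occur. The motifs were chosen with the expression results known.

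Hexokinases phosphorylate glucose and hold it in the cell. Hk1 encodes the form found in most tissues and carried nearly all hexokinase transcript here. Hk1 measured 157, 201, 201 and 242 CPM with ATF4 overexpression and 154, 182, 153 and 177 CPM in WT. The groups overlapped, and the log2 fold change of 0.27 ± 0.12 (SE) was not called (adjusted p = 0.20, 0.028 with the replicate block and 0.12 with the library set as block).

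Hk2 encodes a hexokinase that activated T cells and many tumours induce, and it lies on chromosome 6 from 82725025 to 82774454 (GRCm38, GENCODE M21, as for all genes placed here). It measured 6.54, 6.79, 11.8 and 11.6 CPM with ATF4 overexpression and 3.04, 3.80, 4.41 and 4.12 CPM in WT. All 4 libraries with ATF4 overexpression were above all 4 in WT, and those of library set 2 were the highest. The mean was 9.18 ± 2.91 CPM with ATF4 overexpression and 3.84 ± 0.591 CPM in WT (SD, n = 4 each), a log2 fold change of 1.26 ± 0.24 (SE, adjusted p = 0.0072). Within the library sets it was 0.99 in set 1 (adjusted p = 0.041) and 1.46 in set 2 (adjusted p = 7.5e-04).

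Hk3 encodes a hexokinase known mainly from myeloid cells and lies on chromosome 13 from 55005985 to 55021385. It was low throughout, at 2.64, 2.53, 5.96 and 5.27 CPM with ATF4 overexpression and 0.847, 1.09, 1.86 and 1.14 CPM in WT. The groups did not overlap, and WT replicate 3 was the highest of its group. The log2 fold change was 1.73 ± 0.38 (SE, adjusted p = 0.013), with 1.44 in set 1, where it was not called (adjusted p = 0.062), and 1.91 in set 2 (adjusted p = 0.0057). The myeloid marker sum given above moved the same way, including its higher level in set 2 of both groups, and its part in the Hk3 difference was not tested.

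Per kilobase of transcript, the 3 hexokinases together reached 55.0 ± 9.70 CPM with ATF4 overexpression and 44.3 ± 3.95 CPM in WT (SD, n = 4 each). Of that sum, Hk1 made up 94.7 ± 1.44% with ATF4 overexpression and 97.5 ± 0.617% in WT. The share of Hk2 was 3.00 ± 0.648% with ATF4 overexpression and 1.58 ± 0.265% in WT, and that of Hk3 was 2.28 ± 0.796% and 0.876 ± 0.357%. The called hexokinases were thus the minor isoforms by transcript in both groups.

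Phosphofructokinase commits fructose 6-phosphate to glycolysis, and its tetramers are built from liver (Pfkl), muscle (Pfkm) and platelet (Pfkp) subunits. Pfkp, on chromosome 13 from 6579768 to 6648777, had the most transcript of the 3 and was the most abundant gene called higher. It measured 428, 409, 325 and 331 CPM with ATF4 overexpression and 220, 220, 186 and 202 CPM in WT. Every library with ATF4 overexpression lay above every WT library, and set 1 was above set 2 in both groups. The means were 373 ± 52.7 CPM with ATF4 overexpression and 207 ± 16.4 CPM in WT (SD, n = 4 each), a 1.81-fold difference with a log2 fold change of 0.85 ± 0.11 (SE, adjusted p = 7.5e-04). It was 0.96 in set 1 (adjusted p = 2.7e-04) and 0.76 in set 2 (adjusted p = 4.5e-04). With ATF4 overexpression, the erythroid, myeloid, platelet and proliferation sums were higher in set 2, and the B cell, NK cell, CD4 T cell and dendritic cell sums were higher in set 1. All of these sums were higher with ATF4 overexpression than in WT, and their part in the Pfkp difference was not tested. Pfkp shares 748 exon bases with Pitrm1 on the opposite strand, and how strand was handled in counting is not given. Pitrm1 itself had a log2 fold change of -0.01 (adjusted p = 0.96).

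Pfkl measured 43.4, 49.5, 53.0 and 51.3 CPM with ATF4 overexpression and 32.8, 42.9, 47.1 and 46.9 CPM in WT. WT replicate 1 was the lowest library, the groups overlapped, and the log2 fold change of 0.22 ± 0.12 (SE) was not called (adjusted p = 0.30, 0.026 with the replicate block and 0.086 with the library set as block). Pfkm ran from 11.2 to 18.7 CPM with ATF4 overexpression and from 12.4 to 17.2 CPM in WT. The summed subunits reached 109 ± 10.4 CPM per kilobase with ATF4 overexpression and 66.5 ± 2.40 in WT (SD, n = 4 each), a ratio of 1.63. Pfkp supplied 82.7 ± 3.78% of the sum with ATF4 overexpression and 75.0 ± 3.95% in WT, so the rank of the subunits was the same in both groups.

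The bifunctional kinases make and remove fructose 2,6-bisphosphate, the main activator of phosphofructokinase, and none of the 3 was called. Pfkfb3 had the most transcript, at 41.7 to 44.8 CPM with ATF4 overexpression and 44.5 to 48.4 CPM in WT. Pfkfb2 ran from 18.6 to 25.9 CPM with ATF4 overexpression and from 17.3 to 21.9 CPM in WT. Pfkfb4 ran from 4.03 to 7.31 CPM with ATF4 overexpression and from 4.09 to 5.25 CPM in WT. Their sum per kilobase was 15.7 ± 1.28 CPM with ATF4 overexpression and 15.5 ± 0.485 CPM in WT (SD, n = 4 each).

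The main enzymes between and after these steps were abundant and mostly within 0.3 of 0 on the log2 fold change scale. Aldoc, Eno2 and Eno3 had less transcript. Over the whole set of 32 genes, carriers and kinases included, 20 had a WT mean of at least 30 CPM. Of these, 2 were called (Pfkp and Pdk1) and 17 were within 0.3 of 0. Over all genes tested, whatever their level, 9.16% were called higher and 4.89% lower. The share of all genes within 0.3 of 0 is not given here. Gpi1, which turns glucose 6-phosphate into fructose 6-phosphate, ran from 382 to 437 CPM with ATF4 overexpression and from 394 to 462 CPM in WT. Aldoa, the aldolase that splits fructose 1,6-bisphosphate, measured 208, 209, 259 and 257 CPM with ATF4 overexpression and 280, 277, 280 and 281 CPM in WT. All 4 libraries with ATF4 overexpression were below WT, set 1 further than set 2. The log2 fold change of -0.26 ± 0.09 (SE) was not called (adjusted p = 0.080), but was with the replicate block (adjusted p = 0.013). It was -0.38 in set 1 (adjusted p = 0.019) and -0.12 in set 2 (adjusted p = 0.16). In GENCODE M21, 2 genes share the symbol Aldoa and the table has a single row for it. Aldoc, the minor aldolase, ran from 1.23 to 1.52 CPM with ATF4 overexpression and from 0.477 to 0.901 CPM in WT, with no overlap and a log2 fold change of 0.94 ± 0.33 (SE) that was not called (adjusted p = 0.098).

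Tpi1, which interconverts the products of aldolase, measured 44.9 and 43.7 CPM in set 1 and 78.9 and 79.9 CPM in set 2 with ATF4 overexpression, against 35.4 and 39.6 CPM in set 1 and 48.3 and 50.3 CPM in set 2 of WT. Within each set the libraries with ATF4 overexpression were higher, and the difference was wider in set 2. Over all libraries the log2 fold change of 0.51 ± 0.22 (SE) was not called (adjusted p = 0.18, or 0.0088 with the replicate block). It was 0.27 in set 1 (adjusted p = 0.16) and 0.69 in set 2 (adjusted p = 6.0e-04).

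Gapdh, the enzyme that makes the NADH of glycolysis, had the highest level per kilobase of the 32 genes in both groups. It measured 327, 389, 396 and 429 CPM with ATF4 overexpression and 334, 369, 324 and 366 CPM in WT. The groups overlapped, with a log2 fold change of 0.14 ± 0.09 (SE) that was not called (adjusted p = 0.38). Pgk1, which makes the first ATP of the pathway, measured 118, 103, 160 and 132 CPM with ATF4 overexpression and 141, 114, 155 and 130 CPM in WT, with no separation of the groups (log2 fold change -0.07 ± 0.14, SE; adjusted p = 0.82). Pgam1, the phosphoglycerate mutase, ran from 65.4 to 86.8 CPM with ATF4 overexpression and from 60.8 to 82.2 CPM in WT, and divided by library set rather than by group.

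Enolase makes phosphoenolpyruvate, and Eno1 held most of its transcript, with 94.9 ± 1.21% of the family sum with ATF4 overexpression and 94.2 ± 0.996% in WT (SD, n = 4 each, per kilobase). Eno1 measured 341, 337, 402 and 361 CPM with ATF4 overexpression and 410, 402, 439 and 404 CPM in WT. The groups met at 402 CPM without overlapping, and the log2 fold change of -0.20 ± 0.07 (SE) was not called (adjusted p = 0.12, or 0.0066 with the replicate block). The near-identical copy Eno1b held counts equal to 8.77% of those of Eno1, and reads may be split between them. Eno3, the muscle enolase, ran from 11.1 to 16.8 CPM with ATF4 overexpression and from 15.7 to 22.0 CPM in WT (log2 fold change -0.43 ± 0.17, SE; adjusted p = 0.13, or 0.0053 with the replicate block). Eno2, the neuronal enolase, ran from 0.727 to 1.67 CPM with ATF4 overexpression and from 0.527 to 1.79 CPM in WT. Pkm, the pyruvate kinase of T cells, measured 337, 392, 389 and 414 CPM with ATF4 overexpression and 357, 398, 425 and 429 CPM in WT, with overlapping groups and a log2 fold change of -0.07 ± 0.09 (SE, adjusted p = 0.70). The gene table does not divide Pkm into its splice forms.

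**Figure D3:**
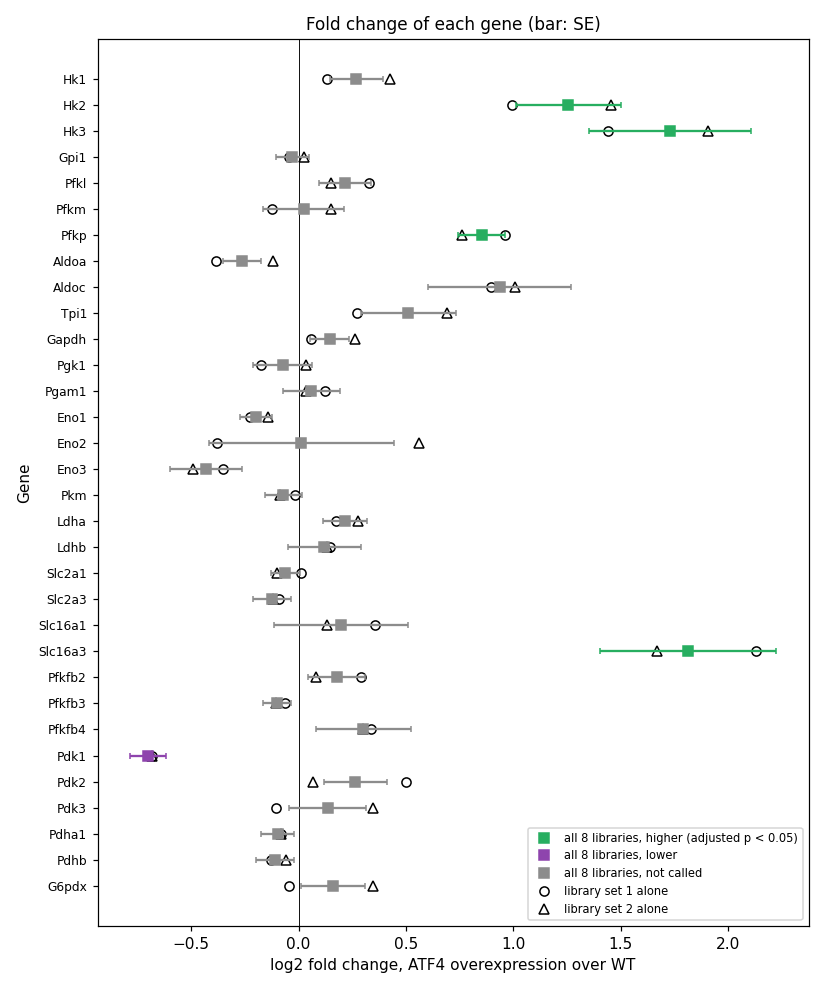
Log2 fold change of each of the 32 genes, ATF4 overexpression over WT; squares with bars are the estimate and SE from all 8 libraries, green for genes called higher, purple for lower and grey for not called, and open circles and triangles are estimates within library set 1 and set 2. Hk2, Hk3, Pfkp, Slc16a3 and Pdk1 lie off 0 on the same side in both sets, while Tpi1, G6pdx and Hk1 lie further to the right in set 2 than in set 1.

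Lactate dehydrogenase A reduces pyruvate to lactate and restores NAD+. Ldha measured 351, 314, 426 and 399 CPM with ATF4 overexpression and 290, 311, 341 and 340 CPM in WT. Within each set the libraries with ATF4 overexpression were higher, but the groups overlapped across sets. The log2 fold change of 0.22 ± 0.10 (SE) was not called (adjusted p = 0.22, or 0.020 with the replicate block). Ldhb, whose product favours the reverse reaction, ran from 7.34 to 12.0 CPM with ATF4 overexpression and from 8.61 to 10.6 CPM in WT. Ldha supplied 96.4 ± 0.970% of the pair per kilobase with ATF4 overexpression and 96.2 ± 0.363% in WT (SD, n = 4 each).

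The glucose carriers were not called. Slc2a1, which encodes GLUT1, the carrier that activated T cells bring to the surface, measured 32.7, 33.9, 32.9 and 33.0 CPM with ATF4 overexpression and 32.9, 34.8, 35.0 and 35.6 CPM in WT. Its values were the tightest of the carriers, and the log2 fold change was -0.06 ± 0.07 (SE, adjusted p = 0.64). Slc2a3, which encodes the high-affinity carrier GLUT3, measured 70.8, 68.4, 69.2 and 56.7 CPM with ATF4 overexpression and 78.4, 73.5, 68.0 and 68.7 CPM in WT. Replicate 4 with ATF4 overexpression was the lowest library, the groups overlapped, and the log2 fold change was -0.12 ± 0.09 (SE, adjusted p = 0.45). Per kilobase, Slc2a3 made up 62.1 ± 2.44% of the pair with ATF4 overexpression and 63.2 ± 2.28% in WT (SD, n = 4 each). With merged exons of all transcripts as the length, these shares were 49.1% and 50.2%. Which glucose carrier had more transcript per kilobase thus depended on the length used. Transcript says nothing here of the amount of carrier at the cell surface.

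Slc16a3, on chromosome 11 from 120948480 to 120960868, encodes MCT4, the lactate exporter of highly glycolytic cells. It measured 1.91, 2.02, 2.96 and 3.40 CPM with ATF4 overexpression and 0.452, 0.467, 1.28 and 0.724 CPM in WT, from 1222 and 328 counts summed over the libraries of each group. The groups did not overlap, and WT replicate 3 was again the highest of its group. The log2 fold change was 1.81 ± 0.41 (SE, adjusted p = 0.015), with 2.13 in set 1 (adjusted p = 0.031) and 1.67 in set 2 (adjusted p = 0.019). It was not called without the 4 libraries poor in low counts (adjusted p = 0.10) or without ATF4 overexpression replicate 4 (adjusted p = 0.052). MCT4 transcript is also known from myeloid cells, whose marker sum moved the same way, and its part in this difference was not tested.

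Slc16a1, which encodes MCT1, the carrier that moves lactate both ways, ran from 33.0 to 58.0 CPM with ATF4 overexpression and from 23.5 to 55.3 CPM in WT. Its libraries divided by set, with WT means of 26.4 CPM in set 1 and 52.5 CPM in set 2, and its log2 fold change of 0.20 ± 0.31 (SE) was not called (adjusted p = 0.77, 0.048 with the replicate block and 0.062 with the library set as block). Per kilobase, Slc16a3 made up 5.54 ± 0.408% of the pair with ATF4 overexpression and 1.83 ± 0.390% in WT (SD, n = 4 each). Slc16a1 remained the main lactate carrier by transcript in every library.

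Pdk1, on chromosome 2 from 71873224 to 71903858, was the only one of the 32 called lower. Its kinase phosphorylates pyruvate dehydrogenase and so restrains the entry of pyruvate into the citric acid cycle, and it is a known target of hypoxia-inducible factor. Pdk1 measured 241, 228, 208 and 208 CPM with ATF4 overexpression and 382, 389, 331 and 337 CPM in WT. All 4 libraries with ATF4 overexpression were below all 4 in WT by a wide margin, with set 1 above set 2 in both groups. The means were 221 ± 16.6 CPM with ATF4 overexpression and 360 ± 30.0 CPM in WT (SD, n = 4 each), and the log2 fold change was -0.70 ± 0.08 (SE, adjusted p = 5.7e-04). Within the sets it was -0.68 in set 1 (adjusted p = 0.0015) and -0.68 in set 2 (adjusted p = 4.0e-04). The CD8 T cell marker sum was also lower with ATF4 overexpression, and its part in the Pdk1 difference was not tested. The 12 markers, of which 6 were called lower, had a median log2 fold change of -0.26. Cd8a among the called markers had a log2 fold change of -0.36 and Cd8b1 of -0.39.

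The other pyruvate dehydrogenase kinases were not called. Pdk2 ran from 15.4 to 21.2 CPM with ATF4 overexpression and from 11.3 to 15.9 CPM in WT, and Pdk3 from 16.1 to 26.4 CPM and from 15.5 to 21.7 CPM. The summed kinases reached 60.5 ± 1.22 CPM per kilobase with ATF4 overexpression and 85.0 ± 4.72 in WT (SD, n = 4 each), a ratio of 0.712. Pdk1 supplied 70.5 ± 3.92% of that sum with ATF4 overexpression and 81.6 ± 2.33% in WT. The share of Pdk2 was 12.7 ± 1.92% with ATF4 overexpression and 7.56 ± 1.34% in WT, and that of Pdk3 was 16.8 ± 4.39% and 10.9 ± 1.86%. Their target subunits were close between groups. Pdha1, the catalytic alpha subunit that the kinases phosphorylate, ran from 133 to 153 CPM with ATF4 overexpression and from 142 to 162 CPM in WT, and the beta subunit Pdhb from 73.7 to 94.9 CPM and from 86.7 to 99.0 CPM. G6pdx, the entry enzyme of the pentose phosphate pathway, ran from 35.8 to 55.1 CPM with ATF4 overexpression and from 35.6 to 44.1 CPM in WT, and was called higher in set 2 alone (adjusted p = 0.014).

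**Figure D4:**
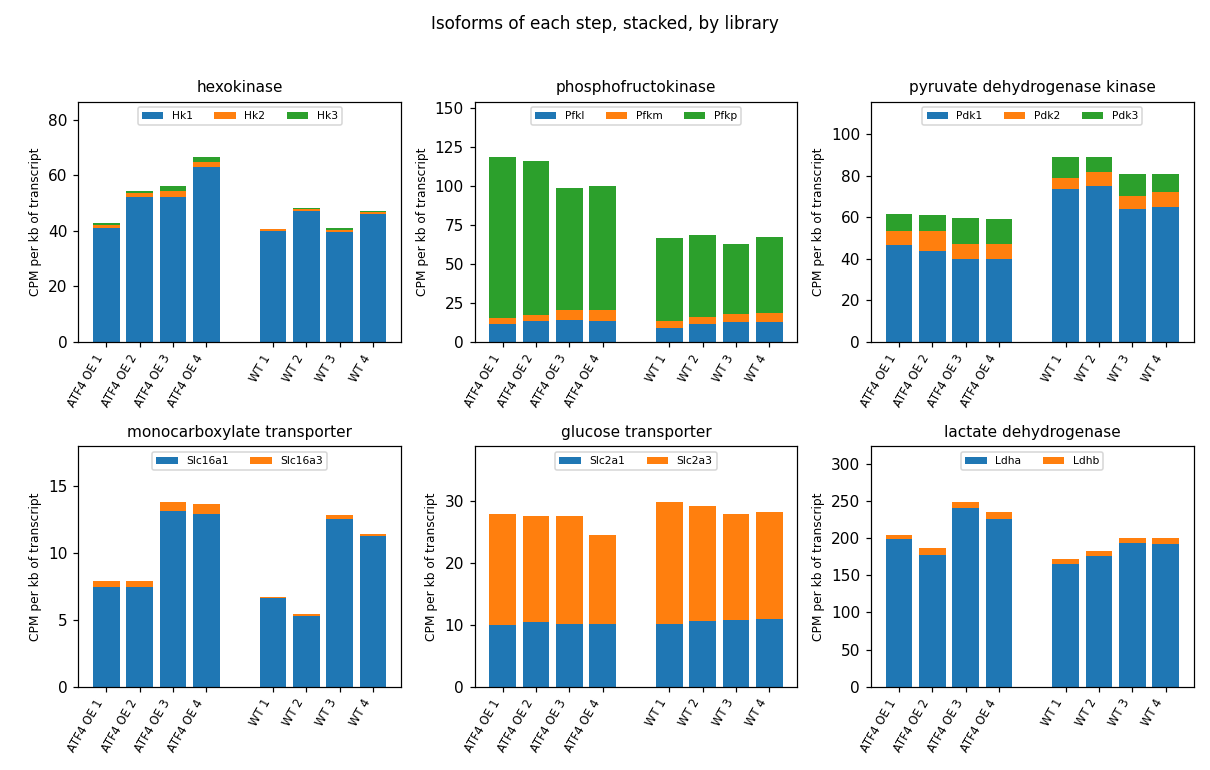
Isoforms of 6 steps, stacked, as CPM per kilobase of transcript in each library, with the 4 libraries of ATF4 overexpression left of the 4 in WT. The phosphofructokinase bars are taller with ATF4 overexpression through Pfkp, the pyruvate dehydrogenase kinase bars are shorter through Pdk1, and the glucose carrier bars show no such gap.

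The library sets were compared because both groups are in each. In set 1 alone 3 of the 32 genes were higher (Hk2, Pfkp and Slc16a3), where 6.75% of all genes were, and 2 were lower (Aldoa and Pdk1), where 3.07% of all genes were. In set 2 alone 8 were higher (Hk1, Hk2, Hk3, Pfkp, Tpi1, Ldha, Slc16a3 and G6pdx), where 14.3% of all genes were, and 2 were lower (Eno3 and Pdk1), where 8% of all genes were. Whether the fold change differed between sets was tested with an interaction term in edgeR, which called 0.998% of all genes and 0 of the 32. At an unadjusted p below 0.05 there were 3 (Tpi1, Aldoa and G6pdx), and without the filter on low counts 1 was called, Tpi1 (adjusted p = 0.041). The share of all genes at either setting is not given here, so these counts cannot be set beside a background. For Tpi1 the fold change was larger in set 2 by 0.45 ± 0.11 on the log2 scale (SE, adjusted p = 0.11).

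The genes around the pathway were read from 6 further lists, 78 genes of which 55 were tested. Of these, 5 were higher and 1 was lower, with a median log2 fold change of 0.0030, and with either block 10 were higher and 6 lower. Over all genes tested, 9.16% were higher and 4.89% lower (13.7% and 13.5% with the replicate block), so the share of these lists called higher is near that background. Of 19 tested genes of glycogen and hexose phosphate metabolism, 2 were higher and 0 lower (3 and 2 with either block). Gys1, the glycogen synthase of most tissues, measured 30.0, 31.7, 30.5 and 32.4 CPM with ATF4 overexpression and 9.37, 11.4, 11.7 and 13.6 CPM in WT. Its values were tight within groups and far apart between them, a 2.70-fold difference with a log2 fold change of 1.43 ± 0.12 (SE, adjusted p = 6.1e-05). Pygl, a glycogen phosphorylase, measured 4.45, 4.44, 12.0 and 12.5 CPM with ATF4 overexpression and 1.37, 1.48, 2.13 and 2.11 CPM in WT, with a log2 fold change of 2.23 ± 0.40 (SE, adjusted p = 0.0046). Both groups of Pygl values were higher in set 2.

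Of the other isoforms of the same enzymes 5 of 15 were tested, and 1 was higher and 1 lower. Pklr, the pyruvate kinase of liver and red cells, measured 2.09, 1.56, 10.2 and 10.7 CPM with ATF4 overexpression and 0.215, 0.119, 0.309 and 0.0658 CPM in WT. It was highest in the libraries of set 2 with ATF4 overexpression, where the erythroid marker sum was also highest, and the part of erythroid RNA was not tested. Its log2 fold change was 5.11 ± 0.80 (SE, adjusted p = 0.0028, or 0.15 with limma-voom). Adpgk, an ADP-dependent glucokinase, had a log2 fold change of -0.24 ± 0.06 (SE, adjusted p = 0.037). It was not called in 13 of 20 alternatives, where adjusted p reached 0.39. These were RLE and upper-quartile scaling, no filter and a stricter filter on low counts, set 1 alone, the 4 libraries poor in low counts left out, and the loss of any single library other than ATF4 overexpression replicate 1.

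Of 10 tested carriers outside the 32 genes, 2 were higher (4, with 1 lower, under either block). Slc2a6, a hexose carrier of the lysosome, measured 1.39, 0.925, 1.88 and 1.04 CPM with ATF4 overexpression and 0.147, 0.258, 0.425 and 0.428 CPM in WT (log2 fold change 2.05 ± 0.47, SE; adjusted p = 0.017). Slc16a7, the pyruvate and lactate carrier MCT2, measured 1.54, 1.58, 1.51 and 1.61 CPM with ATF4 overexpression and 0.339, 0.606, 0.409 and 0.650 CPM in WT (log2 fold change 1.63 ± 0.35, SE; adjusted p = 0.012). Neither group of values overlapped the other, but neither gene was called within set 1 (adjusted p = 0.075 for Slc2a6 and 0.11 for Slc16a7) or without the 4 libraries poor in low counts (0.086 and 0.092). Slc2a6 was also not called without ATF4 overexpression replicate 3. None of 10 pentose phosphate genes, 8 partners of pyruvate dehydrogenase and 3 tested gluconeogenic genes was called by edgeR. At an unadjusted p below 0.05 there were 2, 2 and 0 of them, DESeq2 called 0, 1 and 0, and limma-voom called 0 in each list. With either block, 2 pentose phosphate genes were higher and 1 lower, and 1 partner of pyruvate dehydrogenase was lower.

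**Figure D5:**
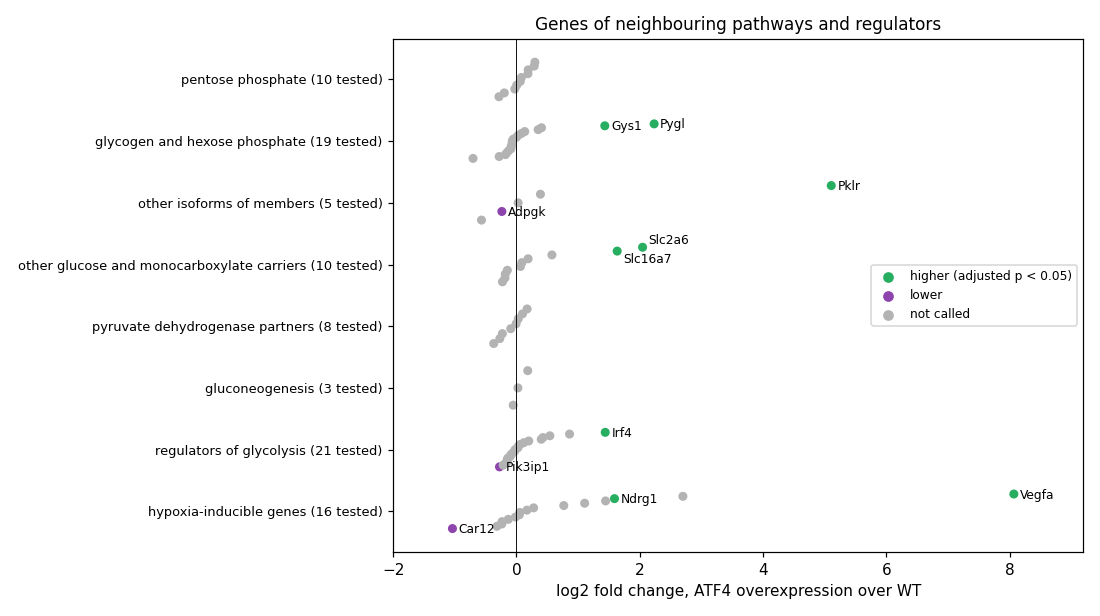
Log2 fold change, ATF4 overexpression over WT, of every tested gene in the 6 lists around the pathway and in the lists of regulators and hypoxia-inducible genes; each point is a gene, green when called higher, purple when lower and grey when not called. Most points sit near 0, and the called genes are named, with Vegfa furthest to the right.

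Regulators of glycolysis were read in the same way. Of 21 tested, 1 was higher and 1 lower (2 and 4 with the replicate block, 3 and 2 with the set block). Over all genes tested 9.16% were higher and 4.89% lower, 13.7% and 13.5% with the replicate block and 14% and 11.6% with the set block. Irf4, a factor known to promote glycolytic genes in activated CD8+ T cells, measured 37.8, 25.0, 12.0 and 12.2 CPM with ATF4 overexpression and 10.5, 8.93, 6.60 and 6.09 CPM in WT. It was higher in every library with ATF4 overexpression, with the widest gap in set 1, and the log2 fold change was 1.44 ± 0.38 (SE, adjusted p = 0.033). It was not called in 8 of 20 alternatives, namely limma-voom, no filter, without the 4 libraries poor in low counts (adjusted p = 0.13, the highest), and without ATF4 overexpression replicate 1 or 2 or WT replicate 2, 3 or 4. Irf4 is also a gene of plasma cells and of B cells, whose markers were higher in set 1 with ATF4 overexpression, and their part was not tested. Pik3ip1, an inhibitor of PI3-kinase, had a log2 fold change of -0.28 ± 0.08 (SE, adjusted p = 0.043) that was not called in 12 of 20 alternatives. These were RLE and upper-quartile scaling, no filter and a stricter filter, set 1 alone (adjusted p = 0.59, the highest), without the 4 libraries poor in low counts, and without any of ATF4 overexpression replicates 2 to 4 or WT replicates 1, 3 and 4. Hif1a, the oxygen-regulated factor behind much glycolytic transcription, and Myc were not called, with log2 fold changes of -0.03 (adjusted p = 0.90) and -0.10 (adjusted p = 0.81).

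Of 16 hypoxia-inducible genes outside the pathway, 2 were higher and 1 was lower (4 and 3 with the replicate block, 5 and 3 with the set block). Among all genes tested, 9.16% were higher and 4.89% lower, and the shares with the blocks are those given for the regulators. Vegfa, the vascular growth factor, measured 200, 219, 159 and 165 CPM with ATF4 overexpression and 0.847, 1.15, 0.667 and 0.148 CPM in WT. It was low in all WT libraries and abundant in all 4 with ATF4 overexpression, with a log2 fold change of 8.07 ± 0.49 (SE, adjusted p = 2.6e-05). Ndrg1, a stress and hypoxia response gene, measured 31.1, 31.3, 40.5 and 40.3 CPM with ATF4 overexpression and 7.83, 8.03, 13.8 and 17.9 CPM in WT (log2 fold change 1.59 ± 0.26, SE; adjusted p = 0.0036). Car12, a carbonic anhydrase, measured 7.73, 7.40, 9.06 and 6.98 CPM with ATF4 overexpression and 15.9, 12.8, 17.3 and 18.1 CPM in WT. It was lower in every library with ATF4 overexpression (log2 fold change -1.04 ± 0.15, SE; adjusted p = 0.0014, or 0.073 without the 4 libraries poor in low counts).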

How the data were processed

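Values are estimated counts in a single table with a row for each gene symbol, deposited by the authors. They come from Salmon on GRCm38.p6, per the submitters' processing notes. Reads shared by overlapping genes or copies are divided by a model there and can move between genes. The sources used here give no annotation release and no strand setting. All 8 columns were mapped to samples by library name. Of 55291 genes, 30015 had no count. Counts were rounded, scaled by TMM, filtered with filterByExpr and tested with edgeR 4.0.16 (R 4.3.3), quasi-likelihood with robust fitting and group as the only term, with Benjamini-Hochberg adjustment over all 16630 genes. The test was run on simulated counts first. CPM used TMM-scaled library sizes, and levels per kilobase used the longest APPRIS principal transcript in GENCODE M21, a choice made after the data were seen. Motifs were searched in RefSeq promoters. Coordinates count from 1.

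The same replicate numbers stand in both groups. Deviations from the group means correlated at 0.22, 0.199, 0.289 and 0.229 between same-numbered libraries, and at 0.157 to 0.254 between the other libraries of the same set, so the number mostly marks the set. A fit with the number as a block is given beside results it changes. Libraries of a group differed beyond sampling noise, so none was merged. Alternatives were RLE and upper-quartile scaling, DESeq2 1.42.0, limma-voom (limma 3.58.1), other low-count filters, blocks, each set alone, leaving out libraries and adding counts of near-identical copies. Counts from amplified reads without molecular identifiers are not independent molecules. Per-library values are given in full for called genes and for the sole or main enzyme of a step; of other lists, up to 4 called genes with the smallest p, provided that the higher group averaged 1 CPM or more. The genes and lists were chosen with earlier results of these data known.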

Additional observations from a re-analysis of the deposited data

Results flagged for a closer look

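Among the 64 groups of 4 libraries screened (32 genes in each genotype), 2 held a library far from the other 3 by Dixon's test, where chance gives about 1 group in 20. Pdk2 measured 21.2 CPM in ATF4 overexpression replicate 2, where the other libraries of that group lay between 15.4 and 16.3 CPM. Pfkfb2 measured 21.9 CPM in WT replicate 2, where the other WT libraries lay between 17.3 and 18.0 CPM. Neither gene was called.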

How the results depend on the processing

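Hk2, Pfkp and Pdk1 kept their calls in all 20 alternatives. Of 640 pairs of a gene and an alternative, 586 gave the same direction and call, 3 lost a call (Hk3 in set 1, Slc16a3 as given in the report), 23 gained one and 28 changed sign. Of the 32 genes, 9 were higher with the replicate block, 6 with the library set as block and 8 within set 2, and 3 to 5 when 1 library was left out. Lower were 2 with DESeq2, 4 with either block (replicate or library set) and 2 within each set, and 1 whichever library was left out. Over all genes, DESeq2 called 2129 higher and 1090 lower of 16630. With 1 library left out, 1089 to 1431 of all genes were higher and 518 to 677 lower, of 17078 to 17359 tested. Of the genes around the pathway, higher were 10 with either block, 3 in set 1, 12 in set 2, and 4 to 6 with 1 library left out. Lower were 4 with DESeq2, 6 with either block, 3 in set 2, 0 to 2 with 1 library left out, and 0 with RLE, upper-quartile scaling, no filter, a stricter filter, set 1, or without the 4 libraries poor in low counts. Over all genes, 722 of 16630 were lower with RLE and 643 with upper-quartile scaling. The count was 681 of 25264 with no filter, 765 of 12406 with the stricter filter and 333 of 17145 without those 4 libraries. The interaction gave 1 call without the filter. With limma-voom, 9 proliferation genes were called, and of the markers 4 for erythroid cells, 5 for B cells, 5 for platelets and 2 for CD4 T cells. The cause of these changes was not tested.

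All sign changes were in 9 uncalled genes with log2 fold changes near 0. Within set 1 they were Pfkm (-0.12), Eno2 (-0.38), Slc2a1 (0.0099), Pdk3 (-0.10) and G6pdx (-0.044), and within set 2 Gpi1 (0.026) and Pgk1 (0.035). Without those 4 libraries they were Pgk1 (0.12), Eno2 (-0.23) and Pfkfb2 (-0.072). Gpi1 turned to 0.0099 with upper-quartile scaling. Pfkm turned to -0.013 with limma-voom, -4.8e-04 with the replicate block and -0.0011 with the library-set block. With 1 library left out, the ranges were -0.061 to 0.024 for Gpi1, -0.092 to 0.14 for Pfkm, -0.20 to 0.017 for Pgk1, -0.018 to 0.13 for Pgam1 and -0.24 to 0.25 for Eno2. Isoform shares moved with the length used: with merged exons of all transcripts, tried after the data were seen, Pfkp made up 69.8% with ATF4 overexpression and 58.8% in WT. Slc2a3 then made up 49.1% of the glucose carrier pair with ATF4 overexpression and 50.2% in WT, so its lead was lost. Counting error was not measured, and for genes near 1 CPM the spread between libraries limits the comparison.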
